A study of Macaca mulatta with 4 samples.

Results

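The hyaluronan matrix proteoglycans and tenascins are described here through 10 genes, chosen by symbol: the tenascins TNC and TNR, the lecticans NCAN, BCAN and VCAN, the link proteins HAPLN1 and HAPLN2, and the membrane proteoglycans PTPRZ1, CSPG4 and CSPG5. Of these, 8 were measured among the 30807 genes counted in single nuclei of the rhesus fetal cerebellum, and NCAN and HAPLN2 were not analysed here. Lecticans are large secreted chondroitin sulfate proteoglycans that bind hyaluronan, the sugar polymer of the brain matrix, at one end and tenascins at the other. Link proteins lock the lectican to the hyaluronan chain, and the tenascins, of which TNC is made mainly by glia of the growing brain and TNR mainly by cells of the oligodendrocyte lineage, cross-link neighbouring lecticans. Together they form the loose matrix of the developing brain and the denser nets that later surround some neurons, in the cerebellum best known from the neurons of the deep nuclei. PTPRZ1 is a receptor tyrosine phosphatase of glia and glial precursors that carries chondroitin sulfate and binds pleiotrophin and tenascins, CSPG4 (NG2) marks oligodendrocyte precursors and the mural cells of vessels, and CSPG5 (neuroglycan C) is a brain proteoglycan with an EGF-like domain.

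Nuclei were isolated from flash-frozen cerebellar hemispheres and part of the vermis of 4 rhesus macaque fetuses and sequenced by a droplet 3′ method, with 1 library per fetus. The 2 control fetuses had no intervention, and the 2 LPS fetuses were exposed to 1 mg of lipopolysaccharide injected into the amniotic fluid and delivered 5 days later. Each group held 1 female and 1 male, at 130, 130, 131 and 133 days of gestation in the control female, the control male, the LPS female and the LPS male, and values of the 4 libraries are given in that order throughout. Where not stated otherwise, a level is the number of UMIs (distinct RNA molecules counted) of a gene relative to all UMIs in the nuclei of a class in 1 library, on the CPM scale, on which all genes sum to the same total in every class and library, and mean ± SD is over the 4 libraries.

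The libraries held 34282015 to 61665690 UMIs and 6905 to 9256 barcodes with at least 500 genes, 32587 in all, and pairs of libraries shared 16 to 22 barcodes. Median depth was 4506, 1882, 4062 and 2308 UMIs per barcode, and these barcodes held 73.9, 58.7, 74.1 and 38.7% of the UMIs of their library. Clustering without the members and their listed relatives gave 15 classes named from marker genes, of which 12 had at least 10 nuclei in every library, and a class name stands here for nuclei like that cell type. Nearly all markers of a class were higher in it than in the other nuclei in all 4 libraries (12 of 12 in Bergmann glia, 13 of 13 in astrocytes, 9 of 10 in the oligodendrocyte lineage and in proliferating glia), the weakest being the granule lineage with 19 of 27. An unnamed cluster of 2588 nuclei with few UMIs came mostly from the LPS male (404, 72, 168 and 1944). The libraries also split by sex in median depth and in mitochondrial share, mitochondrial genes taking 0.267, 0.0212, 0.230 and 0.0324% of UMIs on average. Both libraries of one sex lay above both of the other for 64.3% of the 10897 genes tested in Bergmann glia and for 61% of the 9664 tested in astrocytes. Among the members this held for 6 of 7 tested in Bergmann glia (TNC, VCAN and HAPLN1 higher in the females, TNR, BCAN and PTPRZ1 in the males) and for 5 of 6 in astrocytes. Free RNA made up an estimated 17.8, 19.98, 15.4 and 32.7% of the UMIs of Bergmann glia. The level of each gene in free RNA, measured in barcodes with at most 100 UMIs, is given beside its level in nuclei.

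Among the 12 classes compared, 6 of the 8 members measured were highest in a glial class: TNC, HAPLN1 and PTPRZ1 in Bergmann glia, BCAN in astrocytes, and TNR and CSPG5 in the oligodendrocyte lineage. Among the same 12 classes VCAN was highest in Golgi cells and CSPG4 in endothelial cells, while mural cells, too few to be compared, held more CSPG4 in 3 of the 4 libraries. These levels are a description of the 4 libraries, with no test, and classes next to each other in an order are called apart only where their ranges over the libraries do not overlap.

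**Figure D1:**
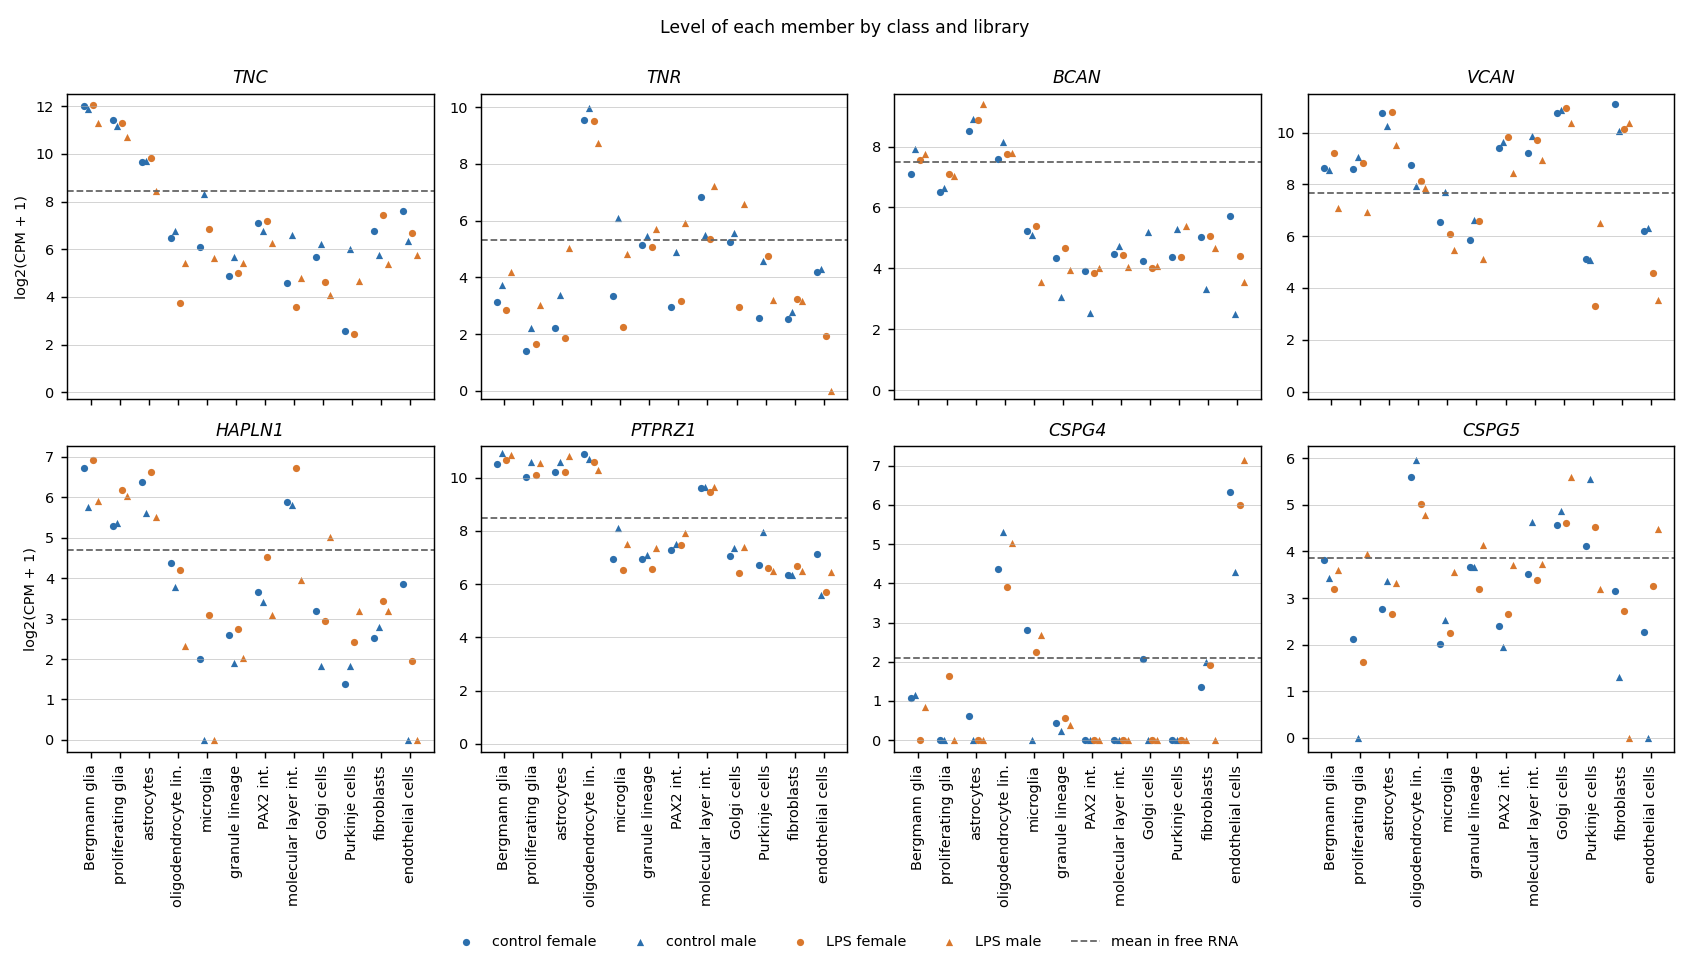
Level of each of the 8 members (CPM, log axis) in the 12 classes, with a point for each of the 4 libraries and the mean level in free RNA as a line. TNC stands above free RNA in 3 glial classes alone, TNR in the oligodendrocyte lineage stands apart from every other class, and VCAN is spread over glia, interneurons and fibroblasts.

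TNC (ENSMMUG00000003356), the tenascin of immature and reactive glia, was read at 4123, 3742, 4212 and 2481 CPM in Bergmann glia (3639.6 ± 799), the radial glia along whose fibres granule neurons migrate. The LPS male was the lowest of the 4, and the other libraries lay within 3742 to 4212. Proliferating glia, the dividing glial nuclei, held 2747, 2334, 2512 and 1662 CPM, and astrocytes held 805, 843, 919 and 347. In every library the order was Bergmann glia, proliferating glia, astrocytes. The ranges of the first pair overlapped, while proliferating glia stood apart from astrocytes and astrocytes from the next class, microglia (137 ± 125). Only these 3 classes exceeded the mean of 350.3 CPM in free RNA, which by library was 376, 439, 377 and 209. Bergmann glia were 1949 of the 32587 barcodes and held 66.6 to 75.4% of the TNC UMIs of a library. After each nucleus was thinned to 1000 UMIs, 89.6, 88.1, 90.2 and 78.3% of Bergmann glia had a TNC UMI, against 3.22, 4.81, 3.19 and 4.42% of granule nuclei, which should lack the gene. The shares without thinning were 98.1, 94.3, 97.8 and 89.5% and 11.8, 7.95, 10.9 and 10.9%, at median depths of 5980, 2252, 4797 and 2580 and 4348.5, 1722, 3902 and 2701.5 UMIs, and nuclei under 1000 UMIs were left out, so that 537, 582, 397 and 387 Bergmann glia and 6686, 5409, 5015 and 4233 granule nuclei were thinned.

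TNR (ENSMMUG00000015723), the second tenascin of the brain, had another distribution. Its level was 752, 1007, 723 and 426 CPM in the oligodendrocyte lineage (727 ± 237), apart from every other class. The next were molecular layer interneurons at 112, 43.7, 39.5 and 147 and Golgi cells at 37.1, 46.3, 6.70 and 94.9, and free RNA held 23.9, 55.2, 20.8 and 54.2. Proliferating glia, second in TNC, were last in TNR with 3.66 ± 2.51. The granule lineage held 48.4 to 55.4% of all TNR UMIs, since it is by far the largest class (22121 nuclei). Its level of 34.6, 42.6, 32.7 and 50.8 CPM was above that of free RNA in both females and below it in both males. With the estimated free RNA subtracted, the granule lineage held 36.3, 40.2, 34.5 and 49.7 CPM. Within that lineage the level differed between clusters. Cluster 4, led by genes of mature granule neurons such as GABRA6 and GRM4, held 92.4, 168, 102 and 88.1 CPM and cluster 0 held 56.4, 69.5, 65.7 and 51.5, cluster 2 held 38.5, 20.6, 25.7 and 24.3, and clusters 1, 3, 5 and 8 lay between 0.380 and 14.2. The LPS male gave 1437 of the 2863 nuclei of cluster 4. A TNR UMI was found in 50.4, 54.3, 34.9 and 25.6% of thinned nuclei of the oligodendrocyte lineage and in 2.53, 3.61, 2.89 and 4.30% of thinned granule nuclei. Before thinning the shares were 78.6, 68.8, 73.6 and 51.3% and 10.6, 6.04, 9.02 and 11.1%, at median depths of 6040.5, 2442, 5753 and 3809.5 and 4348.5, 1722, 3902 and 2701.5 UMIs.

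BCAN (ENSMMUG00000017093) encodes brevican, the smallest lectican and a product of astrocytes and oligodendrocyte precursors. Astrocytes held 366, 482, 463 and 669 CPM (495 ± 127), apart from all other classes. The oligodendrocyte lineage held 191, 279.8, 217 and 221 and Bergmann glia 135, 241, 188 and 216, overlapping each other, and proliferating glia followed at 89.8, 99.4, 135 and 129. The other 8 classes had means of 11.8 to 30.5. Free RNA was rich in BCAN in the females, at 215, 116, 286 and 95.1 CPM, so that in both females the oligodendrocyte lineage and Bergmann glia lay below the free RNA of their own library and in both males above it. Astrocytes were above it in all 4.

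VCAN (ENSMMUG00000011513), versican, the widest-spread lectican and a component of migration-permissive as well as vessel-wall matrix, was read in glia, neurons and fibroblasts. Golgi cells, the inhibitory interneurons of the granule layer, held 1710.3, 1886, 1979 and 1337 CPM (1728 ± 284) from 42, 85, 54 and 15 nuclei. Fibroblasts held 2207, 1079, 1113 and 1322 and astrocytes 1737, 1208, 1765 and 732, and the ranges of the 3 classes overlapped. Inhibitory neurons also held it elsewhere. Molecular layer interneurons had 594, 929, 844 and 489.5 CPM and the younger PAX2 interneurons 670.3, 786, 911 and 344. Bergmann glia, with 392, 378, 596 and 135, proliferating glia, with 386, 534, 451 and 122, and the oligodendrocyte lineage, with 432, 248, 281 and 233, formed a lower tier nearer to free RNA, which held 197, 309.7, 188 and 123. In the LPS male, Bergmann glia and proliferating glia stood near its free RNA value of 123. The granule lineage (70.6 ± 30.9) and Purkinje cells (41.4 ± 34.2) were below free RNA. A VCAN UMI was found in 78.6, 89.4, 79.6 and 80.00% of thinned Golgi nuclei and 5.13, 8.56, 8.06 and 3.35% of thinned granule nuclei. The unthinned shares were 100, 98.8, 100 and 93.3% and 17.9, 14.9, 25.4 and 8.36%, at median depths of 13773.5, 3923, 10209 and 9545 and 4348.5, 1722, 3902 and 2701.5 UMIs.

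HAPLN1 (ENSMMUG00000011517), the link protein first known from cartilage, was read at low levels in the same glia that held TNC. Bergmann glia had 104, 53.6, 119.8 and 59.4 CPM and held 35.2 to 43.97% of its UMIs, astrocytes had 82.4, 47.7, 98.2 and 45.1, and proliferating glia had 38.3, 40.5, 71.7 and 64.7 from 23, 11, 34 and 9 UMIs. Free RNA held 34.2, 15.6, 38.5 and 11.9, and Bergmann glia and astrocytes were above it in every library. Both classes were higher in the 2 females than in the 2 males. Molecular layer interneurons averaged 58.02 ± 36.6, and their clusters differed: cluster 17 held 125, 88.9, 185 and 23.01 CPM and cluster 14 22.4, 23.4, 30.2 and 6.55, the first higher in every library. The ranges of these 4 classes overlapped, and the remaining 8 averaged 2.64 to 13.5, below the mean of free RNA (25.05). For VCAN the interneuron clusters were the other way round in 3 libraries, with 580.4, 1162, 1119 and 642 CPM in cluster 14 and 619, 687, 545 and 329 in cluster 17, the control female being the exception.

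PTPRZ1 (ENSMMUG00000012418), the receptor phosphatase, was shared by the 4 glial classes other than microglia (167 ± 82.2 CPM). It stood at 1464, 1913, 1610.3 and 1836 CPM in Bergmann glia, 1904, 1675, 1521 and 1255 in the oligodendrocyte lineage, 1186, 1537, 1182 and 1792 in astrocytes and 1025, 1531, 1105 and 1503 in proliferating glia. The ranges of these classes overlapped. Molecular layer interneurons, at 783, 789.7, 696 and 809, were apart from the glia above and from PAX2 interneurons below (188 ± 37.7), and were the only neurons among the 12 classes above the mean of 354 CPM in free RNA. Unipolar brush cells, too few for the comparison of classes (21, 8, 10 and 37 nuclei), held 264, 941, 549 and 330.4 CPM, on both sides of that mean.

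CSPG4 (ENSMMUG00000016104) was found at few UMIs. Endothelial cells held 78.7, 18.7, 63.05 and 139 CPM from 41, 4, 22 and 13 UMIs, and the oligodendrocyte lineage 19.6, 38.6, 13.97 and 31.8 CPM from 17, 12, 8 and 24 UMIs. These ranges overlapped, and both were apart from the remaining classes, whose means were at most 3.81 and in the 5 classes of neurons at most 0.808. Mural cells, too few for the comparison of classes (7, 9, 9 and 7 nuclei), had 9, 6, 5 and 1 CSPG4 UMIs, which is 329, 253, 140.4 and 76.2 CPM. The endothelial cluster had a marker score of 6.04 for endothelial cells and, second, of 2.80 for mural cells. Whether it holds mural nuclei was not tested. CSPG5 (ENSMMUG00000031732) averaged 41.6 ± 15.8 CPM in the oligodendrocyte lineage, at 47.4, 61.1, 31.4 and 26.5. Golgi cells held 22.6, 28.3, 23.4 and 47.5 and Purkinje cells 16.2, 46.04, 21.9 and 8.14, from 10, 18, 10 and 1 UMIs in the latter. The ranges of all 3 overlapped. Free RNA held 11.6, 15.6, 6.42 and 20.8, and the granule lineage, with 58.1 to 65.9% of all CSPG5 UMIs, was at its level (12.1 ± 3.53).

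**Figure D2:**
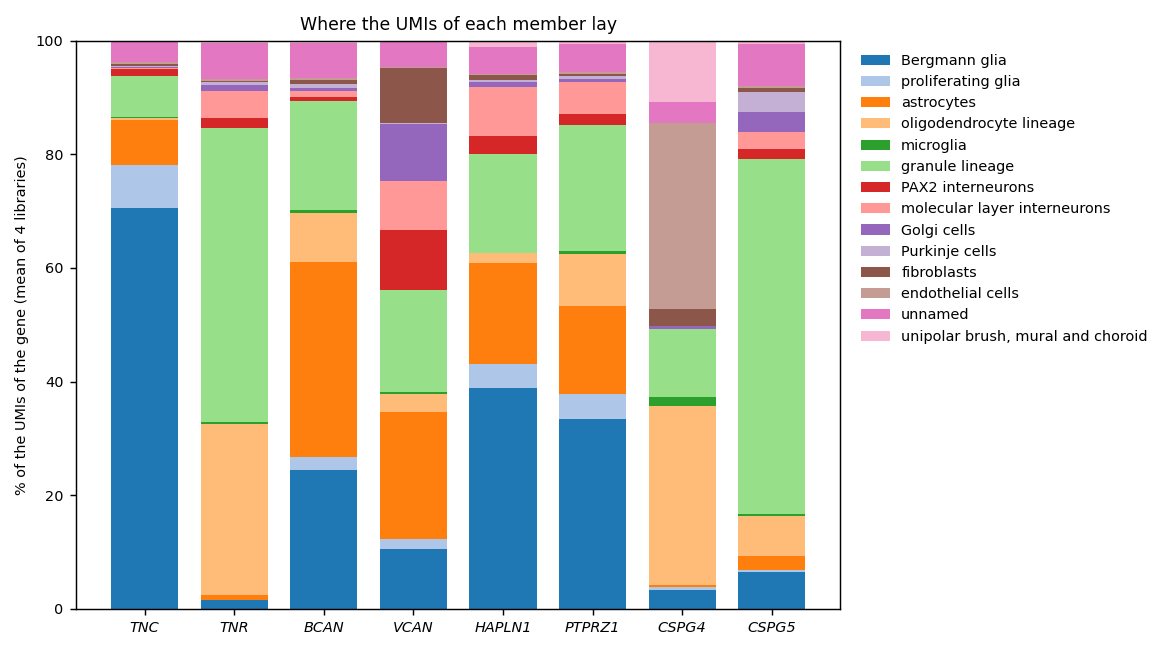
Share of all UMIs of each member (percent, mean over the 4 libraries) that fell in each class. Bergmann glia held most TNC UMIs and the largest glial part of HAPLN1, and the granule lineage, the largest class, held about as many TNR and more CSPG5 UMIs than all other classes together.

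Within the oligodendrocyte lineage (465 nuclei) the members followed different stages. Sub-clusters were named as proliferating precursors (10, 9, 9 and 9 nuclei), precursors (72, 57, 45 and 62), premyelinating cells (14, 12, 14 and 7) and mature cells (19, 12, 13 and 64), and a further 37 nuclei had no name. The precursors joined sub-cluster 0 (159 nuclei) with sub-cluster 6 (77 nuclei, GPR17 and BMP4 among its leading genes), whose marker score was nearly as high for premyelinating cells (0.928) as for precursors (0.932). The mature cells joined sub-cluster 4 (87 nuclei) with sub-cluster 3 (5, 6, 4 and 6 nuclei), which scored 1.07 for mature and 0.971 for premyelinating cells. PTPRZ1 was highest before differentiation. It had 2383, 2708, 2659 and 2108 CPM in proliferating precursors and 3006, 2647, 2633 and 2453 in precursors, 734, 528, 698 and 487 in premyelinating cells and 96.2, 52.4, 184 and 86.8 in mature cells. The first pair of ranges overlapped and lay above every value of Bergmann glia, and the later ranges were apart from them and from each other. The sub-clusters of the precursors differed, with 3637, 3676, 3009 and 3906 CPM in sub-cluster 0 and 2001, 973, 1706 and 1228 in sub-cluster 6, the latter above the range of Bergmann glia in the control female, within it in the LPS female and below it in both males. TNR peaked later. It had 352, 422, 436 and 333 CPM in proliferating precursors, 963, 981, 636 and 779 in precursors, 1701, 2374, 1725 and 1228 in premyelinating cells and 21.4, 454, 272 and 56.7 in mature cells. The first 3 ranges were apart, and the mature range reached from below free RNA in the control female to above that of proliferating precursors in the control male. Most of the mature value came from sub-cluster 3, at 65.8, 924, 781 and 386 CPM, while sub-cluster 4 held 0, 119, 12.1 and 15.04. Sub-cluster 6 of the precursors held 1292, 1261, 1142 and 987 CPM of TNR, between sub-cluster 0 (757, 808, 431 and 532) and premyelinating cells in every library.

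BCAN had 222, 343, 279 and 389 CPM in precursors, 453, 377, 337 and 834 in premyelinating cells and 21.4, 69.8, 79.9 and 30.04 in mature cells, so that it too was lower in the mature than in the premyelinating stage in every library. VCAN, by contrast, was higher in precursors (633, 322, 474 and 464) than in premyelinating cells (445, 283, 261 and 185) in every library, and lowest of these 3 stages in mature cells (192, 139.6, 63.9 and 46.7). Taken alone, each precursor sub-cluster was below premyelinating cells in 1 library, sub-cluster 0 in the control female (437 CPM) and sub-cluster 6 in the control male (270.3 CPM). Precursors held 36.2, 41.1, 32.5 and 71.1 CPM of CSPG4, from 14, 6, 7 and 19 UMIs of the 17, 12, 8 and 24 in the lineage. They held 77.5, 96.01, 74.3 and 56.2 CPM of CSPG5, above the level of the lineage in every library. Sub-cluster 0 held 114, 122, 104 and 98.3 CPM of CSPG5 and sub-cluster 6 held 20.1, 54.1, 0 and 20.7. Stages of 7 to 19 nuclei in a library rest on few UMIs, for TNR in premyelinating cells 218, 126, 205 and 53 and for BCAN 58, 20, 40 and 36.

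**Figure D3:**
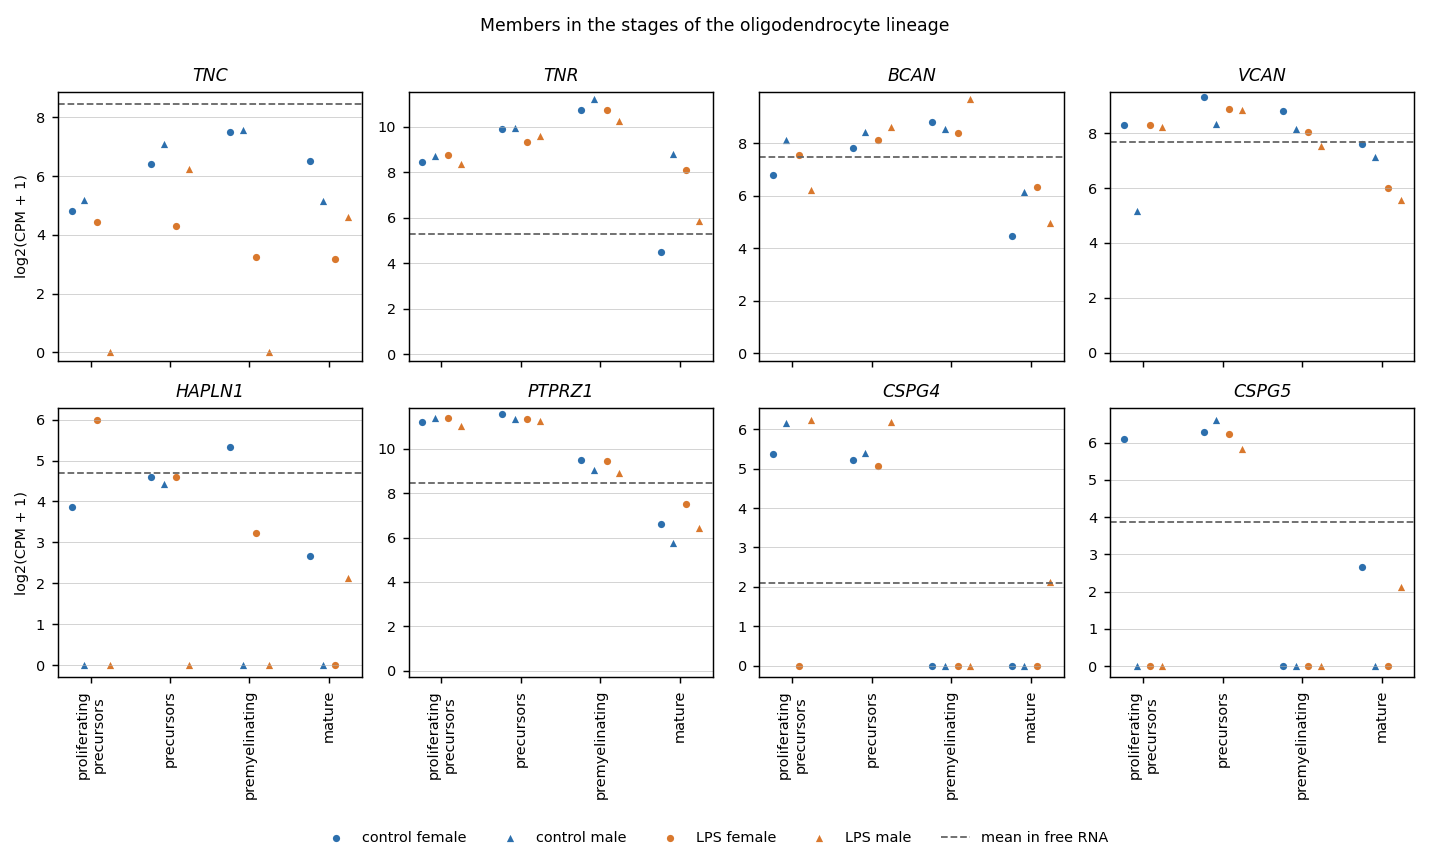
Levels (CPM, 1 point per library) of the members along the stages of the oligodendrocyte lineage, from proliferating precursors to mature cells. PTPRZ1 is high in both kinds of precursor, TNR is highest in premyelinating cells, and PTPRZ1 is lowest in mature cells.

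The second question was whether these genes differed between LPS and control fetuses, 5 days after the injection. Both LPS fetuses were also older, at 131 and 133 days of gestation against 130 and 130 in the controls. LPS and gestational age therefore cannot be told apart here. UMIs were summed per class and fetus and tested with edgeR, and a gene was called at an adjusted p under 0.1 and a log2 fold change over 0.25 in either direction. No gene was called in any of the 8 sums tested, and so no member was called. The share called was 0% of 10897 genes in Bergmann glia, 0% of 9664 in astrocytes, 0% of 6709 in proliferating glia, 0% of 7984 in the oligodendrocyte lineage, 0% of 14876 in the granule lineage, 0% of 9221 in PAX2 interneurons, 0% of 6482 in Purkinje cells and 0% of 16138 in all barcodes. At an unadjusted p under 0.05 edgeR had 38, 44, 40, 85, 27, 32, 29 and 37 genes in these sums, and DESeq2 called 1 gene in the oligodendrocyte lineage, no member, and 0 in the other sums. Each edgeR count was far under a share of 0.05 of the genes tested. With sex as a block edgeR had 348, 395, 198, 471, 287, 483, 99 and 341 genes at that unadjusted p. The absence of calls therefore does not show that nothing changed. With 2 fetuses per group an exact permutation test of a single value cannot go below p = 0.333. Adjusted p-values of the members from edgeR rounded to 1.00 in every sum, and what follows is the size of each difference (log2 of LPS over control) with its standard error.

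In Bergmann glia, TNC differed by -0.22 (SE 0.52), with 0.03 between the females and -0.59 between the males. BCAN differed by 0.13 (SE 0.34), HAPLN1 by 0.17 (SE 0.54) and PTPRZ1 by 0.04 (SE 0.38). VCAN averaged to -0.03 (SE 0.69) over opposite differences, 0.60 between the females and -1.48 between the males on the log2(CPM + 1) scale. The groups overlapped for all 5 of these members. The median log2 difference was 0.04 over the 7 members tested and 0.01 over the 10897 genes tested.

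In astrocytes, TNC differed by -0.36 (SE 0.54), with 0.19 between the females and -1.28 between the males, the LPS male being the low library. BCAN had the same sign in both sexes, at 0.41 (SE 0.35), 0.34 between the females and 0.47 between the males, but the control male (482 CPM) was above the LPS female (463), so the groups overlapped. VCAN differed by -0.24 (SE 0.58), HAPLN1 by 0.13 (SE 0.55) and PTPRZ1 by 0.11 (SE 0.41). The median was 0.12 over the 6 members tested and 0.01 over the 9664 genes tested.

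In proliferating glia, both LPS libraries were above both controls for HAPLN1, with 0.82 (SE 0.49, unadjusted p = 0.127), and for BCAN, whose level there is under that of free RNA in the mean and in every library but the LPS male. These are 2 of 5 members tested, beside 10.5% of all genes tested, and HAPLN1 rests on 23, 11, 34 and 9 UMIs. TNC differed by -0.26 (SE 0.49), VCAN by -0.56 (SE 0.56) and PTPRZ1 by 0.04 (SE 0.42), with overlapping groups. The median was 0.04 over the 5 members tested and 0.01 over the 6709 genes tested. The LPS male gave 32 of the 245 nuclei of this class.

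In the oligodendrocyte lineage, TNR was 752, 1007, 723 and 426 CPM, both LPS libraries below both controls, a difference of -0.59 (SE 0.44) with -0.06 between the females and -1.24 between the males. Without the LPS male it was -0.22 and without the LPS female -1.11. The same order of groups held for PTPRZ1 (-0.37, SE 0.47), for CSPG5 (-0.89, SE 0.48, unadjusted p = 0.094) and for TNC. These are 4 of 8 members tested, beside 9.89% of all genes tested. BCAN (-0.09, SE 0.36), VCAN (-0.44, SE 0.42) and CSPG4 (-0.27, SE 0.62) had overlapping groups. The median was -0.52 over the 8 members tested and -0.00 over the 7984 genes tested. The members tested include TNC (-1.81) and HAPLN1 (-0.71), whose mean levels in this class lay below that of free RNA. Mature nuclei, low in TNR, PTPRZ1 and BCAN, were 15.1, 12.5, 14.9 and 41.03% of the lineage, most in the LPS male. In comparisons added after the data were seen, the differences without the mature nuclei were -0.46 for TNR, -0.21 for PTPRZ1 and -0.71 for CSPG5. In precursors alone they were -0.46, -0.15 and -0.39, and TNR differed by -0.60 between the females and -0.33 between the males. In both comparisons both LPS libraries stayed below both controls for TNR, PTPRZ1 and CSPG5. The share of all genes in that order was not computed for them.

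TNC in the oligodendrocyte lineage lies outside the rule for fits shown, since its level is below that of free RNA, and is given because of its values. It was 87.8, 106, 12.2 and 42.4 CPM, from 76, 33, 7 and 32 UMIs in 15, 16, 7 and 16 nuclei, with up to 28 UMIs in a single nucleus of the control female. The difference was -1.81 (SE 0.53, unadjusted p = 0.007, edgeR adjusted p = 1.00). With sex as a block it was called, at -1.92 (adjusted p = 0.00033), when 0.163% of genes were called lower, and also without the LPS male, at -2.91 (adjusted p = 0.051), when 0.11% were. Over the 13 alternatives for the whole lineage the adjusted p ran from 0.00033 to 1.00 without another call. Without the mature nuclei the difference was -1.62 (unadjusted p = 0.018), and with sex as a block it was called there too, at -1.76 (edgeR adjusted p = 0.043), when 0.0589% of genes were called lower. In precursors alone it was -1.17 and was not called, and in their larger sub-cluster the LPS male (156 CPM) was above both controls (139 and 133) and the LPS female (13.1) below them. Free RNA, which held 376, 439, 377 and 209 CPM of TNC, made up an estimated 17.4, 18.6, 12.04 and 29.8% of the UMIs of these nuclei. With that estimate subtracted, 19, 8, 0 and 0 TNC UMIs were left. The fitted difference was then -6.86 (edgeR adjusted p = 1.00), a value that depends on the prior count, since both LPS libraries were at 0.

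In the granule lineage TNR differed by 0.12 (SE 0.35), and in PAX2 interneurons VCAN differed by -0.19 (SE 0.49), both with overlapping groups. CSPG5 in Purkinje cells had too few UMIs to be tested. Medians over the members and over all genes tested were 0.09 and 0.01 in the granule lineage and 0.40 and 0.01 in PAX2 interneurons. They were -0.47 and -0.02 in Purkinje cells and 0.04 and 0.01 over all barcodes. Of the members tested, 1 of 7, 1 of 6 and 0 of 4 exceeded free RNA in the granule lineage, PAX2 interneurons and Purkinje cells. A level below free RNA does not by itself mean that the UMIs came from it. With the estimated free RNA subtracted, the granule lineage held 84.7, 83.5, 60.3 and 106 CPM of PTPRZ1, but 0 of TNC and BCAN. Purkinje cells then held 93.1, 229, 85.0 and 82.0 of PTPRZ1. Before subtraction both LPS libraries were below both controls there, 1 of 4 members tested, beside 7.48% of all genes tested. Over all barcodes TNC was 427, 445, 398 and 214 CPM, both LPS libraries below both controls, as for 5.45% of genes tested. The difference was -0.50 (SE 0.37), with -0.10 between the females and -1.05 between the males, and -0.12 without the LPS male and -1.01 without the LPS female. In such a sum fewer TNC-rich nuclei and less TNC per nucleus cannot be told apart. TNR (0.16, SE 0.35), VCAN (-0.41, SE 0.49) and PTPRZ1 (-0.09, SE 0.29) overlapped. Without 1 library or another, 0 to 68 genes were called in a sum, the most in PAX2 interneurons without the control female, and TNC in the oligodendrocyte lineage was the only member among them in any sum. The smallest adjusted p of any other fit shown, over its alternatives, was 0.577, for TNR in the oligodendrocyte lineage with sex as a block.

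**Figure D4:**
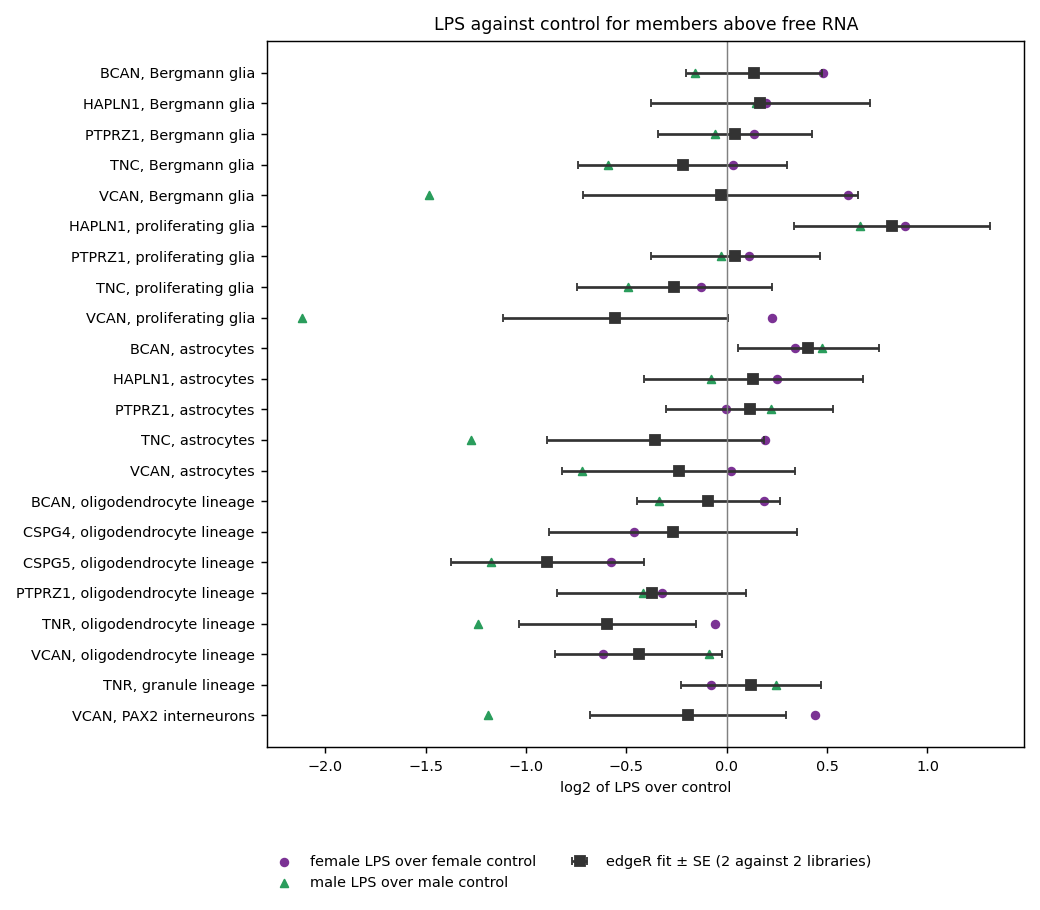
Log2 fold change of LPS over control (edgeR, bars show 1 standard error either side) for each member in the classes where it exceeded free RNA, with the differences between the 2 females and between the 2 males as separate symbols. Most bars cross 0, and females and males lie on opposite sides for several members, most widely for VCAN.

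Genes that act with the family were listed separately: 55 genes, of which 52 were measured, for hyaluronan synthesis, receptors and breakdown, chondroitin sulfate chain synthesis, lectican-cleaving proteases, ligands and receptors, and direct relatives. The numbers tested were 29, 25, 18, 24, 46, 22, 17 and 48 in Bergmann glia, astrocytes, proliferating glia, the oligodendrocyte lineage, the granule lineage, PAX2 interneurons, Purkinje cells and all barcodes, and none was called by edgeR in either direction in any of them or under any alternative. At an unadjusted p under 0.05 there was 1 in proliferating glia and 1 in the granule lineage. The first was CEMIP2, a cell-surface hyaluronidase, at 39.9, 33.1, 4.22 and 14.4 CPM from 24, 9, 2 and 2 UMIs (log2 fold change -2.29, SE 0.94, unadjusted p = 0.038). The second was ITGA8, a subunit of an integrin that binds tenascin, at 47.8, 40.3, 21.6 and 25.2 CPM (log2 fold change -0.92, SE 0.32, unadjusted p = 0.036). Free RNA held more ITGA8 than the granule lineage did, at a mean of 65.6 CPM, and fibroblasts held 2223 ± 741.

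The gene of smallest unadjusted p was in the other sums ADAMTS1, a protease that cuts lecticans, in Bergmann glia (log2 fold change -1.501, SE 0.90, unadjusted p = 0.142), the tenascin-binding integrin subunit ITGA9 in astrocytes (log2 fold change 0.82, SE 0.42, unadjusted p = 0.092), CSGALNACT1, which starts chondroitin chains, in the oligodendrocyte lineage (log2 fold change -0.69, SE 0.40, unadjusted p = 0.116), ITGA8 again in PAX2 interneurons (log2 fold change -1.17, SE 0.51, unadjusted p = 0.058), CHSY1, which lengthens the chains, in Purkinje cells (log2 fold change 0.66, SE 0.57, unadjusted p = 0.277) and the protease ADAMTS9 over all barcodes (log2 fold change -0.87, SE 0.43, unadjusted p = 0.1).

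Of the direct relatives, HAPLN4, the link protein that in the adult cerebellum is made by Purkinje cells and neurons of the deep nuclei, was read in Purkinje cells at 43.9, 28.1, 35.00 and 73.3 CPM from 27, 11, 16 and 9 UMIs, against a mean of 4.37 in free RNA. Related genes were read only in the tested classes, the oligodendrocyte stages, microglia and fibroblasts. Golgi cells, molecular layer interneurons, endothelial cells and the classes too few to be compared were not among them. The other classes where HAPLN4 was read averaged at most 2.80. HAPLN3 was in glia, at 28.3, 16.5, 16.2 and 19.8 CPM in Bergmann glia, 16.3, 12.2, 11.5 and 15.03 in astrocytes and 23.2, 20.6, 9.29 and 18.7 in oligodendrocyte precursors, against 3.99 in free RNA. ACAN, aggrecan, the lectican of mature perineuronal nets, had only 6, 2, 2 and 8 UMIs in the oligodendrocyte lineage and 2 over all Purkinje cells, both in the control female. In the RefSeq annotation of assembly T2T-MMU8v2.0, used for gene order alone, each lectican gene lies beside a link protein gene with 0 protein-coding genes between: VCAN beside HAPLN1 on chromosome 6, BCAN beside HAPLN2 on chromosome 1, NCAN beside HAPLN4 on chromosome 19 and ACAN beside HAPLN3 on chromosome 7. The neighbours VCAN and HAPLN1 shared astrocytes and molecular layer interneurons, but Golgi cells, at 1728 CPM of VCAN, held 12.2 ± 13.1 of HAPLN1.

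For each member the genes whose class means were most like its own were found over the 12 classes, by Pearson correlation of log2(CPM + 1) among 10546 genes, as a description in which all points share the same 4 libraries and free RNA. They were ID4 (r = 0.97) and PROCA1 (r = 0.96) for TNC, beside a gene known only by its identifier. For TNR they included SH3GL3 (r = 0.93), itself a marker used for naming mature oligodendrocytes, a stage lower in TNR than the premyelinating stage, and PICK1 (r = 0.91). For BCAN they were LLGL1 (r = 0.95), ATP10B (r = 0.94) and SMOC1 (r = 0.92). For VCAN they were GLDC (r = 0.89) and TTC21B (r = 0.86), the lowest of the leading correlations, and a gene without a symbol. For HAPLN1 they were ADAMTS18 (r = 0.91), itself one of the Bergmann glia markers used for naming, PPP1R42 (r = 0.89) and CHDH (r = 0.88). For PTPRZ1 they were KCNH5 (r = 0.91) and FREM2 (r = 0.90) after a gene without a symbol, for CSPG4 AGFG1 (r = 0.94) and LIMS2 (r = 0.93) after another, and for CSPG5 FAM102A (r = 0.91), EVI5L (r = 0.90) and PDGFA (r = 0.90). No member appeared in the list of another.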

How the data were processed

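Nuclear RNA of 4 fetal cerebella, 2 control and 2 exposed to LPS, was counted by the authors with Cell Ranger 5.0 per the protocol, or version 4 per the file headers and the submitters' processing notes, on Mmul_8.0.1 with introns included. The deposited values are UMI counts per gene and barcode, which the authors did not normalize or filter. One library was made per fetus, so the fetus was the replicate.

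Barcodes with at least 500 genes were kept, doublets included. They were integrated and clustered in Seurat 5.3.0 (R 4.3.3, 2000 variable features, 30 dimensions, resolution 0.5), leaving out the members and related genes. Clusters were named from marker lists where at least 3 markers were raised, and the oligodendrocyte lineage was sub-clustered. Free RNA was profiled in barcodes with at most 100 UMIs. UMIs were summed per class (at least 10 nuclei in every library) and fetus, and compared in edgeR 4.0.16 by its quasi-likelihood test after filterByExpr and TMM, with Benjamini-Hochberg adjustment, and with DESeq2 1.42.0 as the other tool. The edgeR step was tested on simulated data, with changes larger than any fitted for a member in the main test and no split by sex. That check cannot tell what size of difference could be found here. Differences within a sex are on the log2(CPM + 1) scale. Levels by class were computed in Python 3.11.15 with scanpy 1.11.5. CPM intervals from counting were not computed, and the spread over 4 libraries includes counting error.

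The members, lists and tests were chosen with earlier results of these data known, and the marker lists partly come from the study. Fits are shown for members whose mean CPM in a class is at least that of free RNA. Related genes are named where their unadjusted p is smallest in a sum, with HAPLN3, HAPLN4 and ACAN. Genes of like pattern needed 20 CPM in 1 or more classes. Alternatives changed the tool, size factors, filter on low counts, barcodes used, doublets (the 6% of barcodes with the highest Scrublet score left out), free RNA, naming, sex as a block and the libraries left out. Labels give control replicate 1 and LPS replicate 2 as female and the others as male, and no source pairs the fetuses. A gene among those most like TNR in pattern is not reported here.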

Additional observations from a re-analysis of the deposited data

Results flagged for a closer look

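VCAN in Bergmann glia is listed because the LPS library lay above the control in one sex and below it in the other. Between the females LPS over control was 0.60 on the log2(CPM + 1) scale (392 CPM in the control and 596 in the LPS library), and between the males it was -1.48 (378 and 135 CPM). With 1 fetus of each sex per group the difference between the sexes was not tested. Free RNA held 197, 309.7, 188 and 123 CPM of VCAN and made up an estimated 17.8, 19.98, 15.4 and 32.7% of the UMIs of this class. The LPS male was the lowest library for VCAN in free RNA and in Bergmann glia alike. The edgeR log2 difference was 0.69 without the LPS male and -1.60 without the LPS female. The same opposite signs, females first, were seen in proliferating glia (0.22 and -2.12), PAX2 interneurons (0.44 and -1.19), molecular layer interneurons (0.51 and -0.92), the granule lineage (0.72 and -1.52) and all barcodes (0.26 and -1.40). They were also seen in astrocytes (0.02 and -0.72) and Golgi cells (0.21 and -0.50). Fibroblasts (-0.99 and 0.29) and Purkinje cells (-1.85 and 1.40) had the reverse signs. In the oligodendrocyte lineage (-0.62 and -0.09), microglia (-0.46 and -2.22) and endothelial cells (-1.63 and -2.78) the LPS library was lower in both sexes.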

How the results depend on the processing

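The number of members highest in a glial class stayed at 6 of 8 in each of the 9 alternatives, although VCAN was highest in fibroblasts when nuclei were named by marker score, and PTPRZ1 in the oligodendrocyte lineage without the LPS male. Mean levels moved by more than 1 SD in 8 of 288 comparisons. Of these, 4 were with free RNA subtracted, 3 by marker score and 1 with the highest Scrublet scores left out. Leaving out 1 of 4 libraries cannot move a mean by 1 SD, and the limit of 5% mitochondrial UMIs removed few barcodes. The comparisons under those settings therefore say little about how stable the levels are. Counts of called genes, 0 as reported, became 12 in Bergmann glia, 4 in astrocytes, 3 in proliferating glia, 9 in the oligodendrocyte lineage, 3 in PAX2 interneurons and 4 in Purkinje cells without the filter on low counts. They became 34 in the oligodendrocyte lineage and 27 in PAX2 interneurons with sex as replicate block, and 1 in the oligodendrocyte lineage by DESeq2. The block is for sex, which the labels give, but it also pairs the fetuses, which no source does. It changed the call of no member but TNC in the oligodendrocyte lineage (-1.92), also without its mature nuclei (-1.76). With free RNA subtracted that difference was -6.86, with no TNC UMI left in the LPS libraries. Leaving out each library in turn gave 0 to 55 genes in Bergmann glia, 0 to 24 in astrocytes, 0 to 14 in proliferating glia, 12 to 51 in the oligodendrocyte lineage, 7 to 68 in PAX2 interneurons and 1 to 12 in Purkinje cells, and 0 in the granule lineage and all barcodes. The highest count came without the LPS female in Bergmann glia, the oligodendrocyte lineage and Purkinje cells, without the LPS male in astrocytes, and without the control female in proliferating glia and PAX2 interneurons. These fits assume that the lone library of a group varies as the pair of the other group does. TNC in the oligodendrocyte lineage was called without the LPS male (-2.91).

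No other member was called under an alternative, but the sign of 35 of 356 differences changed, all in differences under 2 SE, and the cause was not tested. Leaving out 1 library, log2 differences ran in Bergmann glia from -0.75 to 0.16 (TNC), -0.14 to 0.47 (BCAN), -1.60 to 0.69 (VCAN), -0.54 to 0.89 (HAPLN1) and -0.031 to 0.12 (PTPRZ1), in astrocytes from -1.35 to 0.21 (TNC), -1.13 to 0.29 (VCAN), -0.67 to 0.74 (HAPLN1) and -0.14 to 0.31 (PTPRZ1), and in proliferating glia from -0.70 to 0.039 (TNC), -1.97 to 0.050 (VCAN) and -0.15 to 0.27 (PTPRZ1). They ran in the oligodendrocyte lineage from -0.28 to 0.11 (BCAN), -0.83 to 0.13 (VCAN) and -0.91 to 0.14 (CSPG4), in all barcodes from -0.23 to 0.47 (TNR), -1.23 to 0.11 (VCAN) and -0.33 to 0.11 (PTPRZ1), in the granule lineage from -0.23 to 0.40 (TNR) and in PAX2 interneurons from -1.14 to 0.36 (VCAN). Ranges that kept their sign were -1.01 to -0.12 (TNC, all barcodes), 0.19 to 0.57 (BCAN, astrocytes), 0.63 to 0.92 (HAPLN1, proliferating glia) and, in the oligodendrocyte lineage, -1.11 to -0.22 (TNR), -0.60 to -0.19 (PTPRZ1) and -1.09 to -0.71 (CSPG5). Other changes of sign were VCAN in Bergmann glia with free RNA subtracted (0.018), PTPRZ1 in Bergmann glia without the filter (-0.0030) and by marker score (-0.055), PTPRZ1 in proliferating glia without the filter (-0.0017), with free RNA subtracted (-0.015) and by marker score (-0.37), and BCAN in oligodendrocyte precursors alone (0.27) and in all stages but mature (0.081), the last 2 added after the data were seen.

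With 2 fetuses per group, sex could not be told apart from the split in mitochondrial share or in depth. Median UMIs per barcode were 4506 and 4062 in the control and LPS females and 1882 and 2308 in the control and LPS males. The lower depth of the males and the small numbers of nuclei in Golgi cells, Purkinje cells and the oligodendrocyte stages limit what these levels can show.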

Other observations

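Genes that build and modify the matrix, named here after their values were seen, had their own distribution over the classes in which they were read. Golgi cells, molecular layer interneurons and endothelial cells were not among those classes. HAS2, a hyaluronan synthase, was read in Purkinje cells at 64.99, 128, 133 and 32.6 CPM from 40, 50, 61 and 4 UMIs and in premyelinating oligodendrocytes at 109, 207, 236 and 23.2 from 14, 11, 28 and 1, against a mean of 5.76 in free RNA. Bergmann glia averaged 0.408 ± 0.472 CPM of it. Purkinje cells also held CHST15, a sulfotransferase of chondroitin chains, at 110.5, 246, 80.9 and 171 CPM, where Bergmann glia held 4.48 ± 5.54. XYLT1, the xylosyltransferase that begins chondroitin and heparan sulfate chains on their core proteins, was read in the same glia as PTPRZ1. It had 1329.8, 1881, 1643 and 2875 CPM in Bergmann glia and 2146, 4499, 1825 and 2849.6 in oligodendrocyte precursors, against 69.9 ± 31.99 in the granule lineage.

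CD44, a hyaluronan receptor, was read in astrocytes at 232, 226, 163 and 271 CPM and in Bergmann glia at 82.8, 68.9, 85.9 and 135, and astrocytes were the higher in every library. ADAMTS9 was likewise higher in astrocytes (249.7, 230.1, 205 and 191) than in Bergmann glia (55.00, 65.2, 47.2 and 27.7). ADAMTS4, a protease that cuts brevican and versican, was found in mature oligodendrocytes at 149.6, 87.3, 63.9 and 110.1 CPM from 28, 5, 8 and 33 UMIs, the named stage lowest in BCAN in every library. PTN, pleiotrophin, a ligand of PTPRZ1, was at 1668, 716, 1635 and 775 CPM in Bergmann glia, with both females above both males, and at a mean of 610.1 in free RNA. None of these genes was called between LPS and control.

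The unnamed cluster of 2588 nuclei, 1944 of them from the LPS male, held 289.8, 709.6, 463 and 222 CPM of TNC and 385, 368, 529 and 421 of PTPRZ1, against 376, 439, 377 and 209 and 355, 412, 299 and 350.0 in free RNA. The other unnamed cluster (904 barcodes) held 36.2, 184, 61.2 and 28.9 CPM of TNC and 97.2, 223, 115 and 161 of PTPRZ1. Of its barcodes, 63.1% were among the 6% with the highest Scrublet score, and their median depth was 2.00 times that of their library.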
